A study of Homo sapiens with 10 samples.

Results

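Genes of the unfolded protein response and of the amino acid stress response were followed across 4 groups of stable liver tumour lines. The set was taken by gene symbol and holds 35 genes, in a count table of 19215 gene symbols of which 13349 were abundant enough to test. All 35 members passed that filter on low counts, CHAC1 only through SK-Hep1. They were described apart as 18 chaperones and targets of the unfolded protein response in the endoplasmic reticulum (the ER group) and 17 stress and amino acid genes of the kind controlled by the transcription factor ATF4 (the ATF4-type group).

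The study blocked the miR-17 family of microRNAs in HepG2, a liver cancer line that still makes plasma proteins, and in SK-Hep1, which the labels also give as a hepatocellular carcinoma line. MicroRNAs were captured with a tough decoy (TuD), a stable RNA with exposed microRNA binding sites, and the control was the same vector type with a negative control decoy (NC TuD). Poly(A) RNA was sequenced from 3 libraries of HepG2 miR-17 TuD, 3 of HepG2 NC TuD, 2 of SK-Hep1 miR-17 TuD and 2 of SK-Hep1 NC TuD, at 12884225 to 15076431 gene counts per library. All 4 groups had taken up lentivirus at a multiplicity of 5 during 48 h with polybrene at 10 µg/mL, and all were kept 2 weeks in puromycin at 1 µg/mL and grown in 10% serum. Surviving colonies were pooled, so each group is 1 stable line. The labels do not state that the replicates were separate cultures, so p-values measure only the spread between these libraries, and the decoy and chance differences between separately made stable lines cannot be told apart.

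The endoplasmic reticulum folds and glycosylates proteins bound for secretion, and hepatocytes secrete most plasma proteins. When unfolded proteins accumulate there, the sensors IRE1 (gene ERN1), PERK (EIF2AK3) and ATF6 raise chaperones, disulfide isomerases and degradation factors, in part through the transcription factor XBP1. PERK, and GCN2 (EIF2AK4) in amino acid shortage, phosphorylate the translation factor eIF2 alpha, which favours translation of ATF4 and so raises genes of amino acid synthesis, amino acid transport and stress feedback.

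Levels are CPM, read counts scaled to the size of each library, with TMM (trimmed mean of M values) factors. Differences are log2 fold changes ± standard error (SE) from 1 edgeR quasi-likelihood fit over all 10 libraries. A gene is called, and written as having risen or fallen, at a Benjamini-Hochberg adjusted p below 0.05 over all genes tested. In bulk RNA, fewer cells of a kind and less RNA of a gene per cell cannot be told apart.

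Cell markers matched HepG2 but not a hepatocyte-like state of SK-Hep1. The 12 hepatocyte markers summed to 56700 to 58860 CPM in HepG2 NC TuD and to 49460 to 51950 CPM in HepG2 miR-17 TuD, where 6 of the 12 fell and 2 rose. They summed to 86.63 to 107.7 CPM in SK-Hep1 NC TuD and to 75.97 to 80.72 CPM in SK-Hep1 miR-17 TuD. Most of each SK-Hep1 sum was SERPINA1, at 63.79 to 70.12 CPM. The highest SK-Hep1 library held ALB at 0.0547% and AHSG at 0.0988% of their HepG2 NC TuD means. Even so, 5 of the 12 fell and 1 rose with the decoy in SK-Hep1. ALB had 59 and 113 counts in SK-Hep1 NC TuD and 0 and 4 in miR-17 TuD. The source of these few counts was not tested. The 9 endothelial markers summed to 64.99 to 75.42 CPM in SK-Hep1 and to 8.46 to 12.2 CPM in HepG2. Nearly all of the SK-Hep1 sum was ENG, at 64.3 to 74.7 CPM, while the defining markers PECAM1, KDR and ERG had no count in any SK-Hep1 library and KDR and ERG none in HepG2 either.

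The first comparison asked how the members differed when the miR-17 family was blocked in HepG2. Chaperones and amino acid genes were lower together, by small amounts. In the ER group 11 of 18 members fell and none rose, with a median log2 fold change of -0.109. In the ATF4-type group 8 of 17 fell and 1 rose, with a median of -0.134. That median includes CHAC1, which had 0 to 2 counts per HepG2 library. Over all genes tested the median was 0. Calls were made for 19.3% of all genes tested. Higher calls made up 10.7% of them, and lower calls 8.58% of them and 12% of the 8148 genes with a mean of at least 20 CPM. Of the 31 members at or above that mean, 19 fell. The members were chosen with earlier results of these data known, so these counts are no independent test of the set. The miR-17 TuD libraries lay wholly below the NC TuD libraries for 20 of the 35 members, and wholly above them for none. Such separation was seen in 14.9% of all genes tested for lower and 16.1% for higher values.

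**Figure D1:**
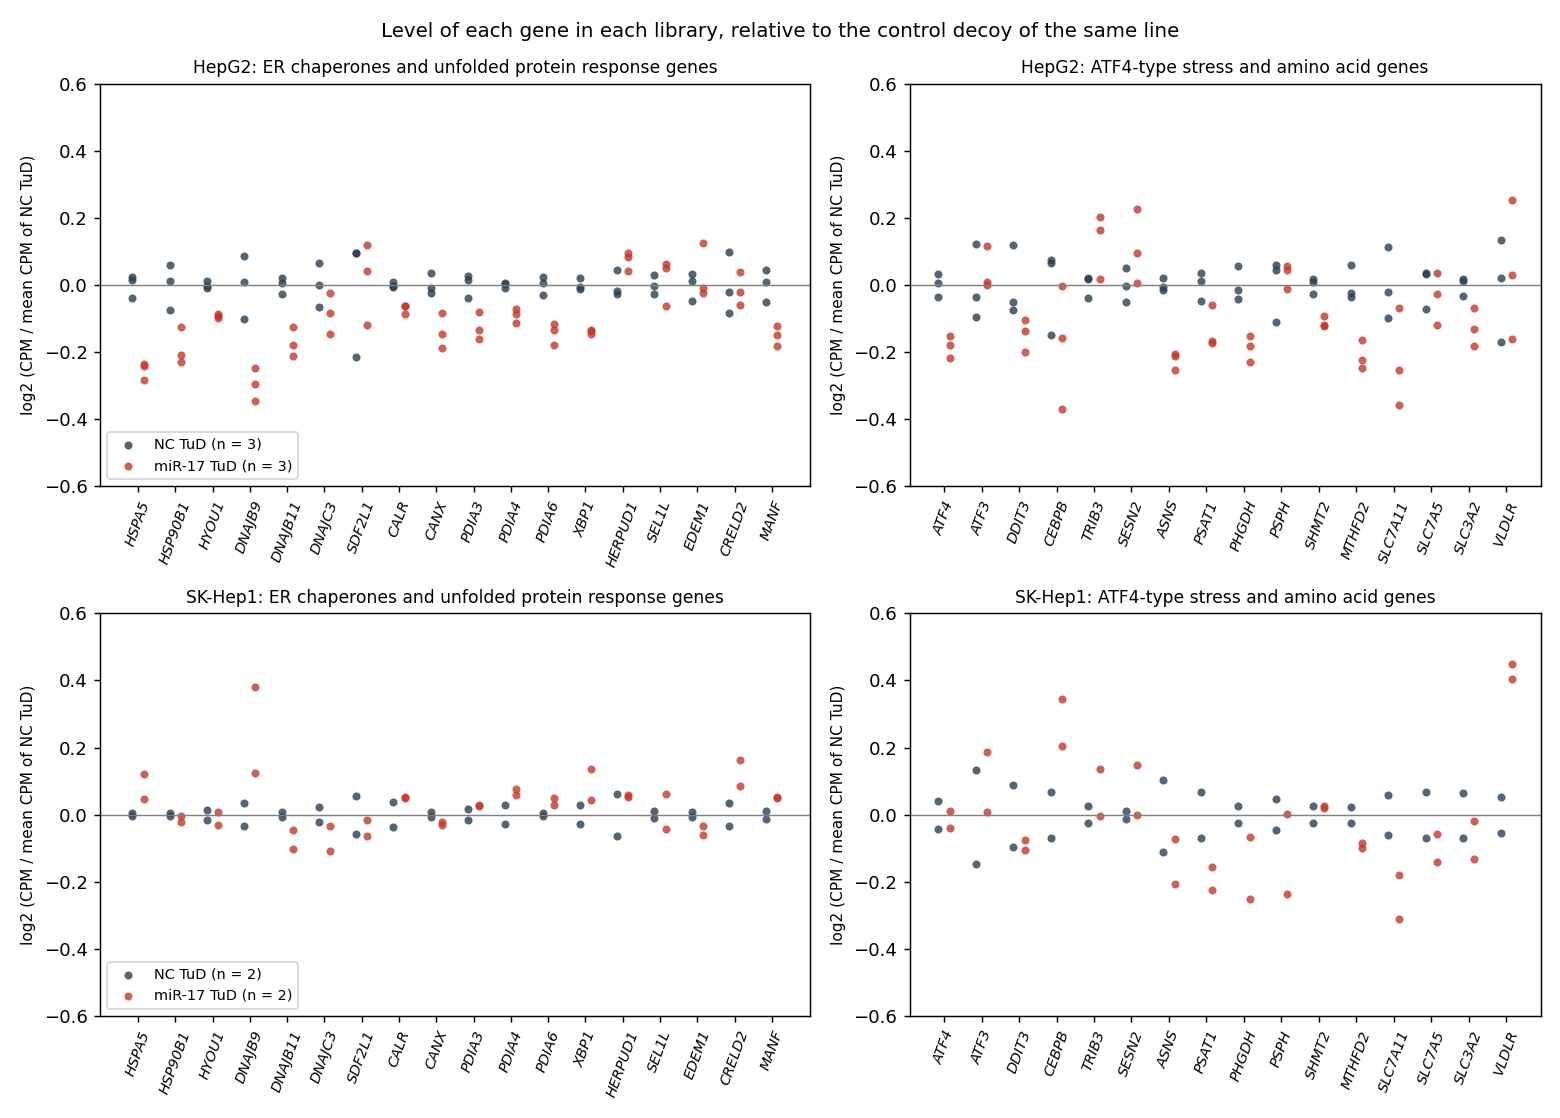
Level of each member in each library as log2 of CPM over the mean CPM of the NC TuD libraries of the same line, with 1 point per library; HepG2 in the upper panels (n = 3 per arm), SK-Hep1 in the lower (n = 2 per arm), and CHAC1 left out because it had 0 to 2 counts per HepG2 library. In HepG2 the miR-17 TuD points of HSPA5, HSP90B1, ATF4 and ASNS lie wholly below the NC TuD points, whereas in SK-Hep1 those of HSPA5 lie above.

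Regulatory sequence was available for 31 of the members, from RefSeq promoters on GRCh38.p14 covering 250 bases before to 50 after the start used for each gene. The ER stress response element (ERSE), CCAAT and CCACG with 9 bases between them, was sought on both strands. It was found in 6 of the 17 ER promoters (35.3%), in 0 of the 14 ATF4-type promoters and in 0.0806% of the 27305 promoters searched. The 6 were HSPA5, HSP90B1, CALR, CANX, XBP1 and CRELD2, with HSP90B1 holding a pair of matches. The related ERSE-II, ATTGG and CCACG with 1 base between them, was found in 3 ER promoters (SDF2L1, HYOU1 and HERPUD1; 17.6%), in 0 ATF4-type promoters and in 0.0549% of all. The core of the unfolded protein response element, TGACGTGG, was found in HYOU1 among the members and in 0.795% of all promoters.

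Sequences are shown for HSPA5 and HSP90B1, the falls of the ER group with the smallest adjusted p, and for XBP1 and HYOU1, which carry a single ERSE and a pair of ERSE-II. Each is the 250 bases before the gene start, read 5′ to 3′ on the gene's strand, from chr9:125241344-125241593 (minus strand), chr12:103930160-103930409 (plus), chr22:28800570-28800819 (minus) and chr11:119057206-119057455 (minus). Capitals mark the matches on either strand.
HSPA5: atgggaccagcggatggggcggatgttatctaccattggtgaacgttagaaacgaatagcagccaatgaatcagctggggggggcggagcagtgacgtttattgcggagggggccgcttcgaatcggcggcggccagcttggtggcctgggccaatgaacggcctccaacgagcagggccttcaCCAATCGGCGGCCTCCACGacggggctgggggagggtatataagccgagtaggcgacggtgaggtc
HSP90B1: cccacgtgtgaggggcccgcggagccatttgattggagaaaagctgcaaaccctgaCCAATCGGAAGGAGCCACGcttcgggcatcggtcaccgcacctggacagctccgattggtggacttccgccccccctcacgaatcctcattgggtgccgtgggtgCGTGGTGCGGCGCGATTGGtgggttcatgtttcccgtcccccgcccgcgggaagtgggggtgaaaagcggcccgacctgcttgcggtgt
XBP1: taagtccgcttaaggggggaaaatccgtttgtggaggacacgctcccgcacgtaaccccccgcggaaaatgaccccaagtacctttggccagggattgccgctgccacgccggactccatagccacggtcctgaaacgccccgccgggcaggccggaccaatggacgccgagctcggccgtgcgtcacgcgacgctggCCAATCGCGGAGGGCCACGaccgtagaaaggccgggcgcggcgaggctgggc
HYOU1: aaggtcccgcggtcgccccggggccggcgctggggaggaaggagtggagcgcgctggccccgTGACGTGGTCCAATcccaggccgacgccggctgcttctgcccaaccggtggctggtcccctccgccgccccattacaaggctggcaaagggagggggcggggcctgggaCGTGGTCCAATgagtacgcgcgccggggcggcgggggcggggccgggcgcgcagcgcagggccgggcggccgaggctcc
The first match in HYOU1 joins the TGACGTGG core to an ERSE-II on the other strand, and the letters of both overlap. CALR, HERPUD1, SDF2L1 and CRELD2 hold an element of these kinds and were not called in HepG2, while PDIA6 and DNAJB9 hold none in this window and fell. A match describes letters in the window, not a bound site.

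Among the ER chaperones, HSPA5 encodes BiP, the HSP70 of the ER lumen and the repressor of the stress sensors. HSPA5 stood at 2136, 2122 and 2042 CPM in the HepG2 NC TuD libraries and at 1784, 1724 and 1775 CPM in the miR-17 TuD libraries. The arms did not overlap, and HSPA5 fell by 16.2% (log2 -0.25 ± 0.03, adjusted p = 5.65e-09). HSP90B1, the HSP90 of the ER known as GRP94, read 2098, 2171 and 1979.6 CPM against 1803, 1776 and 1910.3 CPM. Its miR-17 TuD libraries were again all below the controls, with a difference of -0.19 ± 0.03 (adjusted p = 1.43e-05).

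Co-chaperones of BiP moved with it in part. DNAJB9 (ERdj4), which helps BiP bind and repress IRE1, stood at 27.1, 28.6 and 25.1 CPM in the control arm and at 22.7, 21.2 and 22.0 CPM with the decoy. This was the largest fall among the ER members, -0.29 ± 0.08 (adjusted p = 0.0048), in a gene of low level. DNAJB11 (ERdj3), which hands unfolded clients to BiP, stood at 158, 159.7 and 154 CPM against 136, 144 and 139 CPM, a difference of -0.17 ± 0.04 (adjusted p = 0.00233). HYOU1, the large HSP70 that recharges BiP with ATP, stood at 517, 510.5 and 512 CPM against 479, 481 and 484 CPM. Its arms were apart, but the difference was only -0.09 ± 0.03 (adjusted p = 0.0447). DNAJC3 and SDF2L1, also partners of BiP, were not called, at -0.08 ± 0.05 and 0.02 ± 0.07.

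The 3 protein disulfide isomerases, which form and shuffle disulfide bonds in new proteins, all fell. PDIA6 stood at 785, 775 and 756 CPM in the control arm and at 713, 682 and 704 CPM with the decoy, a difference of -0.14 ± 0.03 (adjusted p = 0.000899). PDIA3 (ERp57), the partner of the lectin chaperones, stood at 822, 816 and 785 CPM against 735, 723 and 764 CPM, or -0.13 ± 0.03 (adjusted p = 0.0041). PDIA4 stood at 895, 886 and 893 CPM against 848, 824 and 839 CPM, or -0.09 ± 0.03 (adjusted p = 0.0371). For each of the 3 genes every decoy library lay below every control library.

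The lectin chaperones hold glycoproteins during folding. CANX (calnexin, the membrane-bound one) stood at 1141, 1176 and 1129 CPM against 1038, 1009 and 1083 CPM, and fell by 0.14 ± 0.03 on the log2 scale (adjusted p = 0.000956). CALR (calreticulin, the soluble one) stood at 1609, 1621 and 1607 CPM against 1543, 1542 and 1517 CPM. Its arms did not overlap, yet at -0.07 ± 0.03 it missed the threshold (adjusted p = 0.0981).

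XBP1, whose mRNA IRE1 splices to make an active factor, stood at 405, 398 and 396 CPM in HepG2 NC TuD and at 364, 361 and 364 CPM in miR-17 TuD. It fell by 0.14 ± 0.04 on the log2 scale (adjusted p = 0.00314), and gene counts do not separate its spliced form. MANF, a small secreted protein induced by ER stress, stood at 103, 96.2 and 100.3 CPM against 91.6, 90.0 and 87.9 CPM, or -0.15 ± 0.05 (adjusted p = 0.0159). CRELD2, another secreted product, was not called (-0.01 ± 0.06). None of the 3 degradation factors was called. HERPUD1 and SEL1L, parts of the retrotranslocation complex, and EDEM1, which marks misfolded glycoproteins for disposal, lay between 0.02 and 0.07.

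Calls in the ER group were not equally stable. HSPA5, HSP90B1, DNAJB11, PDIA3, PDIA6, CANX and XBP1 were called without each HepG2 library in turn and under every other setting run. The PDIA4 call was lost without miR-17 TuD replicate 1 or 2 or NC TuD replicate 1 or 3 (adjusted p = 0.0553 to 0.122). The HYOU1 call was lost without any one of the HepG2 libraries except miR-17 TuD replicate 3 (0.0577 to 0.143), and the MANF call without NC TuD replicate 1 (0.104). DNAJB9 and MANF missed the threshold in DESeq2 (0.0506 and 0.0508). DNAJB9 also missed it with limma on the deposited log2 matrix, each library centred on its median gene (0.0576). Of 8 other settings, 4 lost the PDIA4 call and 4 the HYOU1 call. The summed ER members read 10970 to 11330 CPM, with TMM factors, in the control arm and 9941 to 10280 CPM with the decoy. The hepatocyte markers given above fell in the same libraries, and their part in the ER result was not tested.

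For the ATF4-type group the promoter element sought was the C/EBP-ATF response element (CARE), TGATGNAA, on both strands. It was found in 4 of 14 promoters (ATF3, CHAC1, ASNS and SLC3A2; 28.6%), in 1 of 17 ER promoters (HERPUD1) and in 3.67% of all promoters. ASNS, which fell in HepG2, and CHAC1, which was near 0 counts there, are shown as genes that hold the same element at very unequal levels. The windows are 250 bases at chr7:97872409-97872658 (minus strand) and chr15:40953221-40953470 (plus), with the match in capitals, on the other strand in CHAC1. The CHAC1 window ends before the gene start. The ASNS window ends before the start of a transcript that lies inside the outer bounds of the gene.
ASNS: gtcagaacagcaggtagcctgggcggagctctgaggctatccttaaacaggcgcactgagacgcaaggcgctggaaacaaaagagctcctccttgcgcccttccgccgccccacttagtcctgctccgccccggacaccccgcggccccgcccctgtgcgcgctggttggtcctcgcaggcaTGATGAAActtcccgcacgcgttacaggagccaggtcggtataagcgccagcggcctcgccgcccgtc
CHAC1: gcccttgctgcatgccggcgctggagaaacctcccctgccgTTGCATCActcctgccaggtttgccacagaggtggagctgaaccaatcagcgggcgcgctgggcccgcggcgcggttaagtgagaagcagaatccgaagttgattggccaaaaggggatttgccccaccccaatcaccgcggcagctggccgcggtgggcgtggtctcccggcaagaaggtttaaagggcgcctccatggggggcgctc
The match starts 68 bases before that transcript start in ASNS and 209 bases before the gene start in CHAC1.

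Among the stress transcription factors, ATF4 itself stood at 462, 441 and 454 CPM in the HepG2 NC TuD libraries and at 407, 399 and 389 CPM in the miR-17 TuD libraries. All decoy libraries were below all controls, and ATF4 fell by 0.18 ± 0.04 on the log2 scale (adjusted p = 8.07e-05). This is the level of its mRNA, whereas stress acts mainly on its translation. DDIT3 (CHOP), a factor of prolonged ER stress, stood at 13.4, 11.9 and 11.7 CPM against 11.5, 10.8 and 11.2 CPM. Its arms did not overlap, but -0.15 ± 0.10 was not called (adjusted p = 0.356). CEBPB, a partner of ATF4 at CARE elements, stood at 66.3, 56.8 and 65.9 CPM against 56.5, 62.9 and 48.8 CPM, with overlapping arms and an adjusted p of 0.0806. Without miR-17 TuD replicate 2 or without NC TuD replicate 2 CEBPB was called lower (adjusted p = 0.00404 and 0.00981). ATF3, a stress factor downstream of ATF4, was not called (0.04 ± 0.12).

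Amino acid and one-carbon synthesis enzymes fell in 5 of 6 cases. ASNS, which makes asparagine, stood at 69.1, 69.5 and 70.8 CPM in the control arm and at 60.2, 58.5 and 60.5 CPM with the decoy, so that it fell by 14.4% (log2 -0.22 ± 0.06, adjusted p = 0.00219). MTHFD2, a mitochondrial folate enzyme, stood at 195, 207 and 194 CPM against 170.3, 168 and 178 CPM, or -0.21 ± 0.04 (adjusted p = 6.75e-05). In both genes the arms were clear of each other.

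Serine is made from a glycolytic intermediate by PHGDH, PSAT1 and PSPH in turn. PHGDH stood at 175, 171 and 183 CPM against 155, 159 and 150.4 CPM, or -0.19 ± 0.04 (adjusted p = 0.00108). PSAT1 stood at 393, 400.2 and 378 CPM against 347, 346 and 374 CPM, or -0.13 ± 0.04 (adjusted p = 0.00786). PSPH, the last step, stood at 99.1, 100.3 and 89.0 CPM against 99.2, 99.9 and 95.4 CPM, with overlapping arms and no call (0.03 ± 0.05). SHMT2, which turns serine into glycine in mitochondria, stood at 267, 260.1 and 268 CPM against 243, 248 and 244 CPM, or -0.11 ± 0.04 (adjusted p = 0.0261). The first steps of the serine pathway and SHMT2 thus separated the arms, and the last step did not.

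Of the amino acid transporters, SLC7A11 and SLC7A5 are light chains that pair with the heavy chain SLC3A2 and carry cystine and large neutral amino acids. SLC7A11 stood at 83.8, 97.0 and 88.5 CPM in HepG2 NC TuD and at 70.1, 75.2 and 85.5 CPM in miR-17 TuD, or -0.22 ± 0.06 (adjusted p = 0.00507). SLC3A2 stood at 289, 280.3 and 290.4 CPM against 262, 273 and 253 CPM, or -0.13 ± 0.04 (adjusted p = 0.0168). SLC7A5 stood at 709, 659.6 and 711 CPM against 680.3, 711 and 638 CPM and was not called (-0.03 ± 0.04). The arms overlapped for SLC7A11 and SLC7A5 and not for SLC3A2.

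TRIB3, a pseudokinase that dampens ATF4 and CHOP, was the 1 member that rose. It stood at 177, 170.0 and 177 CPM in the control arm and at 195, 201 and 177 CPM with the decoy, so the arms overlapped through miR-17 TuD replicate 3. The rise was 0.13 ± 0.04 (adjusted p = 0.0296), and the call was lost without miR-17 TuD replicate 1 or 2 or NC TuD replicate 1 or 2 (adjusted p = 0.0666 to 0.205). Of 8 other settings, 4 lost the TRIB3 call too. SESN2, a stress-induced brake on growth signalling, was not called (0.11 ± 0.07). CHAC1, which degrades glutathione, had 0, 2 and 1 counts in the control libraries and 0, 0 and 2 with the decoy, so no difference was detectable at this depth. VLDLR, a lipoprotein receptor induced by ATF4, was not called (0.05 ± 0.15).

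Fewer calls of the ATF4-type group held throughout. ATF4, ASNS and MTHFD2 were called without each library and under every other setting, and PHGDH missed the threshold only in the matrix with each library centred on its median gene (adjusted p = 0.0532). PSAT1 and SLC7A11 were lost without miR-17 TuD replicate 1 (0.0767 and 0.0898). With limma on the deposited log2 matrix, as given and centred, PSAT1 (0.0863 and 0.13), SLC7A11 (0.0921 and 0.117) and SLC3A2 (0.0892 and 0.111) were lost too. SLC3A2 also missed the threshold in DESeq2 (0.0517), and SHMT2 with a replicate block (0.0632). SHMT2 was lost without that library or NC TuD replicate 1 or 3 (0.066 to 0.103), and SLC3A2 without miR-17 TuD replicate 1 or 3 or NC TuD replicate 1 (0.0683 to 0.0734). Without HepG2 miR-17 TuD replicate 1 the count of ATF4-type members that fell was 4. The summed members of this group read 2973 to 3048 CPM, with TMM factors, in the control arm and 2752 to 2866 CPM with the decoy.

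**Figure D2:**
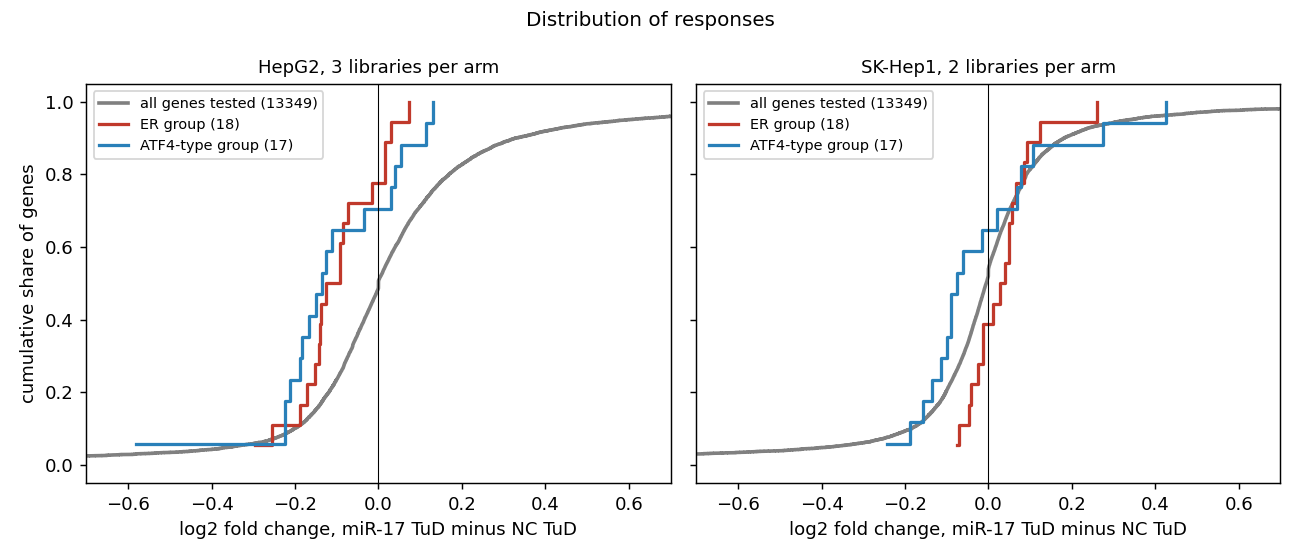
Cumulative share of genes (vertical) against log2 fold change, miR-17 TuD minus NC TuD (horizontal), for all 13349 genes tested, the 18 ER members and the 17 ATF4-type members, in HepG2 (left, 3 libraries per arm) and SK-Hep1 (right, 2 per arm); the horizontal axis is cut at the extremes of the curve for all genes. In HepG2 both member curves lie left of the curve for all genes over most of their length, with medians of -0.109 and -0.134 against 0.

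Genes of the same pathways that are no members were counted from lists of 135 tested genes. In HepG2 35 fell and 11 rose, with a median of -0.0625. Of 23 other ER folding genes 9 fell and none rose, among them RCN1 (-0.44, adjusted p = 1.95e-07), CALU (-0.22, 5.19e-06) and the collagen chaperone SERPINH1 (-0.26, 7.53e-06). Of 34 genes of ER degradation, translocation and secretion 11 fell, led by the translocon genes SSR1 (-0.21, 2.73e-05), SERP1 (-0.19, 0.000285) and SSR3 (-0.18, 0.000338), and 2 rose, among them NPLOC4 (0.11, 0.0403). Of 21 other amino acid synthesis and transport genes 9 fell, led by the folate enzyme ALDH1L2 (-1.46, 1.06e-07), BCAT1 (-0.31, 5.08e-07) and CBS (-0.26, 0.00012), and 2 rose, SLC1A4 (0.20, 0.000811) and SLC43A1 (0.14, 0.0374).

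Calls went both ways among the synthetases and other ATF4-type stress genes, and only down among the heat shock genes. Over all genes tested 8.58% fell and 10.7% rose. Of 20 cytosolic aminoacyl-tRNA synthetases, many of them ATF4 targets, 3 fell and AARS rose (0.14, adjusted p = 0.00387). Those that fell were FARSB (-0.19, 0.00156), IARS (-0.11, 0.017) and GARS (-0.11, 0.045). Of 20 other ATF4-type stress genes 4 rose, led by NUPR1 (0.45, 0.000401), TXNIP (0.21, 0.000719) and INHBE (0.39, 0.00112), and 2 fell, XPOT (-0.19, 0.000203) and EIF4EBP1 (-0.21, 0.00288). Of 18 cytosolic and mitochondrial heat shock genes 6 fell, led by HSPD1 (-0.17, 6.29e-05), HSPA9 (-0.16, 0.000218) and HSPE1 (-0.16, 0.00114), and none rose.

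No sensor gene was called in HepG2. The log2 fold change was -0.03 ± 0.10 for ERN1 (adjusted p = 0.882), -0.01 ± 0.06 for EIF2AK3 (0.947), -0.06 ± 0.05 for ATF6 (0.511) and 0.07 ± 0.04 for EIF2AK4 (0.32). Of the 17 genes of stress sensing and eIF2 alpha control, MBTPS1, the protease that cuts ATF6, rose (0.29, 3.47e-07), as did the eIF2 alpha phosphatase subunit PPP1R15A (0.21, 0.0269), and EIF2B4 fell (-0.23, 0.000439). These calls stand beside 10.7% of all genes tested that rose and 8.58% that fell.

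The second comparison put the same question to SK-Hep1. No member was called there by edgeR, and none by DESeq2. Of all genes tested 0.869% were called by edgeR, 0.667% higher and 0.202% lower. At an unadjusted p below 0.05 edgeR gave 9 of the 35 members, against 1116 of the 13349 genes tested. They were 2 of the 18 ER members, HSPA5 and DNAJB9, both above 0, and 7 of the 17 ATF4-type members. The 7 went both ways, with VLDLR and CEBPB above 0 and ASNS, PSAT1, PHGDH, SLC7A11 and SLC7A5 below. The ER median was 0.0335, with 11 members above 0 and values from -0.0748 to 0.26. The ATF4-type median was -0.0755, with 11 members below 0 and values from -0.242 to 0.425. Over all genes tested the median was -0.00533. The miR-17 TuD libraries lay wholly above the controls for 11 members and wholly below them for 8, against 18.4% and 21.9% of all genes tested.

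The smallest adjusted p among the members in SK-Hep1 was that of VLDLR. VLDLR stood at 12.5 and 13.5 CPM in the NC TuD libraries and at 17.2 and 17.7 CPM in the miR-17 TuD libraries, a difference of 0.43 ± 0.12 (adjusted p = 0.0685). Both decoy libraries were above both controls. With only the SK-Hep1 libraries in the fit the adjusted p was 0.0203, and with DESeq2 size factors 0.0489. SLC7A11 stood at 93.3 and 85.8 CPM against 72.1 and 79.1 CPM, or -0.24 ± 0.07 (adjusted p = 0.114), again with separate arms. It too was called with only the SK-Hep1 libraries in the fit (0.0158), as was CEBPB (0.0438).

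Each member's longest 3′ untranslated region (GENCODE 29, GRCh38) was searched for GCACTTT, the letters that pair with the seed of the blocked microRNAs. The family shares that seed over 8 mature miRNAs in RefSeq, and 1 is printed here, from chr13:91350618-91350640 (plus strand), with the seed, bases 2 to 8, in capitals.
hsa-miR-17-5p: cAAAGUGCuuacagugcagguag
GCACTTT was found in 7 of 35 members (20%) and in 25% of the 12732 tested genes with a 3′ untranslated region. The 7 were HSPA5, DNAJB9, EDEM1, SHMT2 and SESN2 with 1 site each, and VLDLR and SLC7A11 with 3 each. In HepG2, 4 of the 7 fell, HSPA5, DNAJB9, SHMT2 and SLC7A11, and none rose. Of all 35 members 19 fell and 1 rose, and of all genes tested 8.58% fell and 10.7% rose. The share that fell among all tested genes with a site was not counted. VLDLR and SLC7A11 are shown because they hold the same number of sites and lay on opposite sides of 0 in SK-Hep1. The sites printed are at chr9:2654129-2654151 and chr9:2654246-2654268 (plus strand) for VLDLR, and at chr4:138171385-138171407 (minus strand) for SLC7A11, with the match in capitals.
VLDLR site 1: ccaaatatGCACTTTccctagaa
VLDLR site 2: attcttaaGCACTTTgaaaatat
SLC7A11 site 1: tacccagaGCACTTTgaacaaag
In all 3 the match is to the whole seed, bases 2 to 8.

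Other SK-Hep1 values did not pass the adjusted threshold, though some exceeded their errors. HSPA5 stood at 819.6 and 815 CPM in NC TuD and at 889 and 845 CPM in miR-17 TuD, or 0.08 ± 0.04 (adjusted p = 0.541). HSP90B1 stood at 2319.7 and 2307 CPM against 2281 and 2308 CPM, with overlapping arms. DNAJB9 stood at 12.6 and 13.3 CPM against 14.1 and 16.9 CPM, or 0.26 ± 0.12 (adjusted p = 0.507). ATF4 stood at 357 and 338 CPM against 338 and 349.9 CPM, and the arms overlapped.

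The serine enzymes PHGDH, PSAT1 and PSPH lay below 0 in SK-Hep1 without passing the threshold, while in HepG2 PHGDH and PSAT1 had fallen and PSPH lay above 0. PSAT1 stood at 52.7 and 47.9 CPM against 43.0 and 45.2 CPM, or -0.19 ± 0.07 (adjusted p = 0.288). PHGDH stood at 104 and 100.01 CPM against 85.4 and 97.1 CPM, or -0.16 ± 0.06 (adjusted p = 0.324). The arms of both genes did not overlap, with the miR-17 TuD libraries the lower. ASNS stood at 99.8 and 86.0 CPM against 80.5 and 88.4 CPM, or -0.14 ± 0.06 (adjusted p = 0.543), with overlapping arms. PSPH stood at 20.9 and 19.6 CPM against 20.3 and 17.2 CPM, or -0.11 ± 0.10 (adjusted p = 0.818), with overlapping arms too.

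The members that fell in HepG2 were read side by side in SK-Hep1. Of the 11 ER members that fell in HepG2, 7 were above 0 and 4 below 0 in SK-Hep1. Of the 8 ATF4-type members that fell, 7 were below 0 and 1 above 0. These are counts of fitted values, and none of the SK-Hep1 values was called. The split depends on scaling, because some values lay close to 0. With DESeq2 size factors HSP90B1 went from -0.0119 to 0.00303, HYOU1 from -0.012 to 0.00307 and ATF4 from -0.0148 to 9.01e-05. HSP90B1 and HYOU1 also changed sign in DESeq2. The split of all genes that fell in HepG2 was not counted. The summed ER members read 7864 to 7942 CPM in SK-Hep1 NC TuD and 8004 to 8005 CPM in miR-17 TuD, and the summed ATF4-type members 2277 to 2321 and 2180 to 2204 CPM. Of the 135 other pathway genes 1 was called in SK-Hep1, the death receptor gene TNFRSF10B (0.18, adjusted p = 0.0362).

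**Figure D3:**
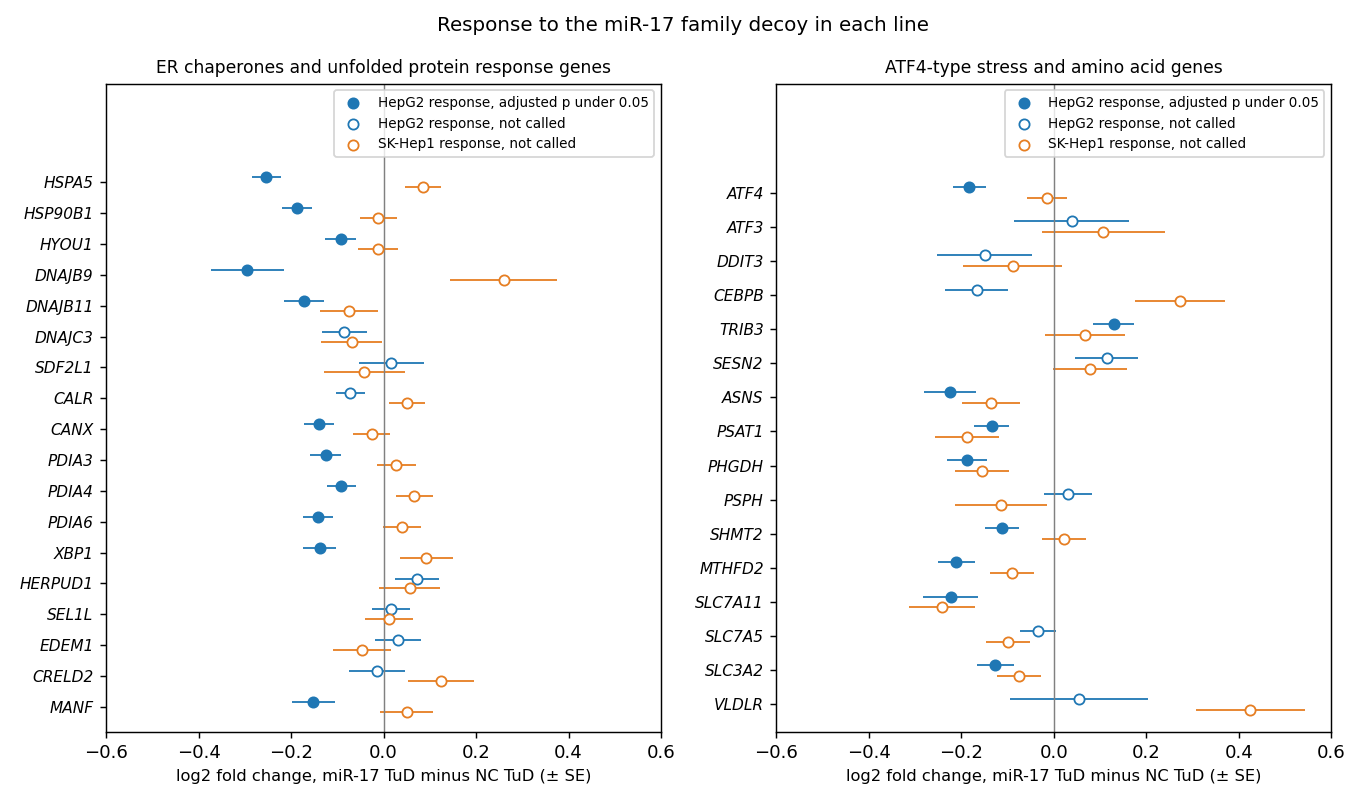
Log2 fold change of each member, miR-17 TuD minus NC TuD, with SE bars, in HepG2 (blue, n = 3 per arm) and SK-Hep1 (orange, n = 2 per arm), ER group left and ATF4-type group right; filled points passed an adjusted p of 0.05, open points did not, and CHAC1 is not drawn. In HepG2, HSPA5 lies at -0.25 and DNAJB9 at -0.29, and in SK-Hep1 they lie at 0.08 and 0.26.

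The third comparison tested whether a member's response differed between the lines, as the SK-Hep1 response minus the HepG2 response. It passed for 6 of 35 members, 5 of the ER group and 1 of the ATF4-type group, all with the higher value in SK-Hep1. Of all genes tested, 3.75% passed, 1.24% with the higher and 2.51% with the lower value in SK-Hep1. HSPA5 differed by 0.34 ± 0.05 (adjusted p = 3.92e-06), from -0.25 in HepG2 to 0.08 in SK-Hep1. DNAJB9 differed by 0.56 ± 0.14 (0.0119), XBP1 by 0.23 ± 0.07 (0.0356), PDIA6 by 0.18 ± 0.05 (0.0347) and HSP90B1 by 0.18 ± 0.05 (0.0406). In the ATF4-type group CEBPB differed by 0.44 ± 0.12 (0.0241), between -0.17 in HepG2 and 0.27 in SK-Hep1, neither of which was called alone.

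HSPA5 was the 1 member that passed this test without each library and under every other setting run. DNAJB9 was lost without SK-Hep1 NC TuD replicate 1 or SK-Hep1 miR-17 TuD replicate 2 (adjusted p = 0.0708 and 0.248). XBP1 was lost without any of 5 libraries (0.0616 to 0.337), PDIA6 without any of 7 (0.0574 to 0.168) and HSP90B1 without any of 8 (0.0885 to 0.186). CEBPB was lost without HepG2 NC TuD replicate 1 or 3, SK-Hep1 NC TuD replicate 1 or SK-Hep1 miR-17 TuD replicate 1 (0.0586 to 0.175). Of 7 other settings, DNAJB9, HSP90B1 and CEBPB were each lost under 3, XBP1 under 2 and PDIA6 under 1. ATF4 read 0.17 ± 0.06 higher in SK-Hep1 (0.0882), and the serine enzymes did not pass either, with PHGDH at 0.03 ± 0.07 and PSAT1 at -0.05 ± 0.08. Among the other pathway genes 7 of 135 passed with the higher value in SK-Hep1, including RCN1 (0.48) and PPIB (0.28), and 1, MBTPS1, with the lower (-0.26).

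The fourth comparison set the level of each member in SK-Hep1 NC TuD against HepG2 NC TuD. Most genes differ between these lines: 86.7% of all genes tested were called, 43.9% higher and 42.8% lower in SK-Hep1. Of the members 29 of 35 were called. In the ER group 13 were lower in SK-Hep1, 2 higher and 3 not called, with a median of -0.67. In the ATF4-type group 7 were lower, 7 higher and 3 not called, with a median of 0.0335. CHAC1 is among the 7 higher but passed the filter on low counts only through SK-Hep1, so its call is no added support. Over all genes tested the median was 0.0235.

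XBP1 had the largest line difference of the ER group. XBP1 stood at 405, 398 and 396 CPM in the HepG2 NC TuD libraries and at 72.0 and 69.2 CPM in those of SK-Hep1, which is 5.66-fold lower (log2 -2.50 ± 0.05, adjusted p = 1.49e-47). DNAJB11 followed at -1.40, HSPA5 at -1.36 and HYOU1 at -1.10. DNAJB9, PDIA3 and PDIA4 lay between -1.05 and -0.97, HERPUD1 at -0.81, PDIA6 at -0.74 and DNAJC3 at -0.60. CALR (-0.36), EDEM1 (-0.26) and SEL1L (-0.24) differed least among the lower ones. HSP90B1 (0.15, adjusted p = 0.000151) and CANX (0.14, 0.000455) were slightly higher in SK-Hep1, and SDF2L1, CRELD2 and MANF were not called. Of the sensor genes EIF2AK3 (-1.64), ERN1 (-0.97) and ATF6 (-0.28) were lower in SK-Hep1 and EIF2AK4 (0.47) was higher.

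In the ATF4-type group the lines differed in which members were high. PSAT1 stood at 393, 400.2 and 378 CPM in HepG2 NC TuD and at 52.7 and 47.9 CPM in SK-Hep1 NC TuD, 7.77-fold lower (log2 -2.96 ± 0.05, adjusted p = 8.54e-49). TRIB3 stood at 177, 170.0 and 177 CPM against 26.0 and 25.1 CPM, 6.84-fold lower, and PSPH at 99.1, 100.3 and 89.0 CPM against 20.9 and 19.6 CPM, 4.74-fold lower. CEBPB (-1.06), PHGDH (-0.79), SHMT2 (-0.59) and ATF4 (-0.38) were also lower in SK-Hep1. The whole serine route was thus lower in that line.

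On the other side, CHAC1 had 49 and 42 counts in the SK-Hep1 NC TuD libraries and 3 counts in all in those of HepG2, a ratio of 42.8 after scaling, with an exact 95% interval of 14.2 to 212 that covers counting error only. VLDLR was 2.51-fold higher in SK-Hep1, at 12.5 and 13.5 CPM against 4.6, 5.25 and 5.68 CPM (log2 1.33 ± 0.13, adjusted p = 2.05e-13). DDIT3 (0.55), ATF3 (0.43), ASNS (0.41), MTHFD2 (0.21) and SLC7A5 (0.13) were higher too, and SLC7A11, SLC3A2 and SESN2 were not called. ATF3 lost its call without SK-Hep1 NC TuD replicate 1 (adjusted p = 0.0989) and SLC7A5 without SK-Hep1 NC TuD replicate 2 (0.278). SLC7A5 was also lost in both limma fits (0.0713 and 0.0691). The ATF4 mRNA and the stress factors DDIT3 and ATF3 therefore lay on opposite sides of 0 in this comparison.

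**Figure D4:**
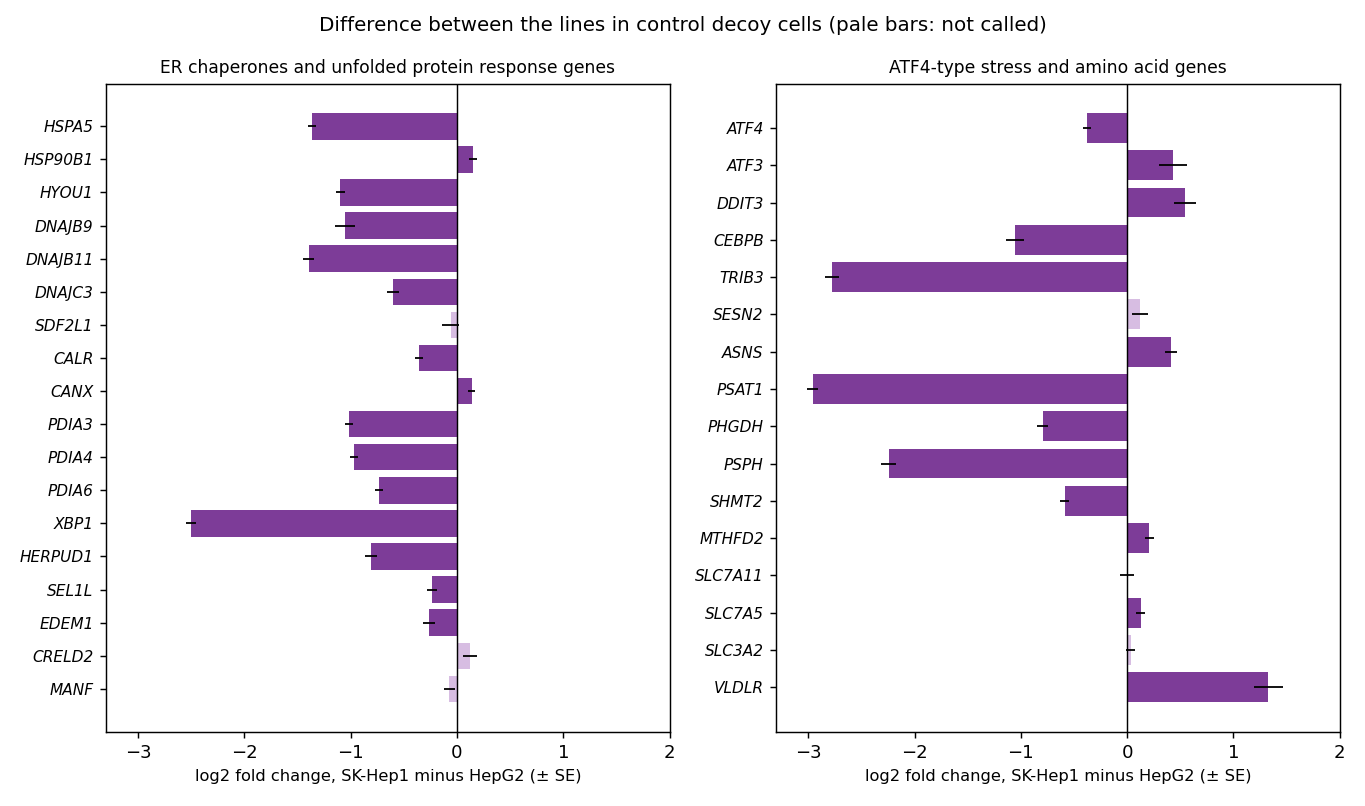
Log2 fold change of each member between the lines in control decoy cells, SK-Hep1 NC TuD (n = 2) minus HepG2 NC TuD (n = 3), with SE bars, ER group left and ATF4-type group right; dark bars passed an adjusted p of 0.05, pale bars did not, and CHAC1 is not drawn. XBP1 (-2.50), PSAT1 (-2.96), TRIB3 (-2.77) and PSPH (-2.25) have the longest bars, and VLDLR (1.33) the longest to the right.

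Per kilobase of exon (all GENCODE 29 transcripts of a gene joined), the members spanned a wide range of levels. In HepG2 NC TuD the order was led by CALR at 594.1 CPM per kb, HSPA5 at 537.4, HSP90B1 at 443.6 and PDIA4 at 272.1, and ended with ATF3 at 1.96, VLDLR at 0.554 and CHAC1 at 0.0376. In SK-Hep1 NC TuD it was led by HSP90B1 at 492.8, CALR at 464.2, HSPA5 at 209.2 and CANX at 202.5. The order of HSPA5 and HSP90B1 in HepG2 depended on the length used, since HSPA5 took rank 2 per joined exons and rank 3 per longest transcript, while HSP90B1 was the higher in SK-Hep1 with either length. In SK-Hep1 HSPA5 and CANX likewise exchanged ranks 3 and 4 per longest transcript, at 209.2 and 296.4 CPM per kb. XBP1 took rank 11 of 35 in HepG2 and 16 in SK-Hep1, and PSAT1 ranks 9 and 17. In HepG2 NC TuD the neighbours PDIA3 and PDIA6, at 190.5 ± 4.62 and 188.3 ± 3.58 CPM per kb (SD, n = 3), differed by less than their spread. This held for joined exons only, since per longest transcript PDIA3 stood at 216.7 (rank 8) and PDIA6 at 287.9 (rank 5).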

How the data were processed

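Raw counts by gene symbol were deposited by the authors for each of 10 libraries (unstranded TruSeq libraries from 150 ng RNA, 50 bp paired reads, per the labels) and a log2 matrix of 13658 genes. Per the submitters' processing notes, reads were handled with FastQC, STAR and SAMtools on hg19 and counted with HTSeq 0.5.4p5, followed by limma. The series design text names Bowtie, TopHat, a mouse genome and RSEM instead. The symbols in the files are human, and their closing lines have HTSeq's form. Those lines (outside genes, 11.6% to 14.1% of a column; ambiguous, 0.584% to 0.619%; not unique, 4.48% to 5.04%; not aligned, 2.43% to 2.87%) were left out. Each deposited log2 value equals log2 of the count plus 0.5, over 1 library size per library.

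The test was edgeR 4.0.16 (R 4.3.3) with filterByExpr by group, TMM, 4 group means, robust quasi-likelihood F tests, two-sided. The SE is the log2 fold change over the root of F. Alternatives were DESeq2 1.42.0, its size factors, other filters, fits of only the groups compared, a replicate block, limma 3.58.1 on the deposited matrix, and leaving out each library. At these depths 1 count is 0.0663 to 0.0776 CPM, and a count of 0 allows 3 counts, 0.199 to 0.233 CPM. Both cover counting error alone, because no molecular identifiers were used. Replicates differed by more than counting error (chi-square over its degrees of freedom 1.39 to 3.59). The test was checked on simulated data.

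Members, pathway lists and markers were chosen with earlier results of these data known. All members are named. Members called in a decoy response are given in every library, the line difference by the 4 largest folds per direction and group, and other pathway lists by up to 3 called genes per direction with the smallest adjusted p in HepG2, plus the 4 sensors. Promoters and the miRNA come from RefSeq (GRCh38.p14), and lengths and 3′ untranslated regions from GENCODE 29 (GRCh38), whereas counts were made on hg19. Protein sequences were not used here. Of the genes that the naming rule takes, 1 is not reported here, nor are the sequences of some seed sites.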

Additional observations from a re-analysis of the deposited data

Results flagged for a closer look

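The decoy response of 6 members differed between the cell lines by edgeR's test of the difference itself, with values given as the SK-Hep1 response minus the HepG2 response on the log2 scale. HSPA5 differed by 0.34, DNAJB9 by 0.56, CEBPB by 0.44, XBP1 by 0.23, PDIA6 by 0.18 and HSP90B1 by 0.18. In SK-Hep1 both decoy libraries lay above both controls for HSPA5, DNAJB9, CEBPB, XBP1 and PDIA6, and the arms of HSP90B1 overlapped. In HepG2 all decoy libraries lay below all controls for each of these genes except CEBPB, whose arms overlapped. Such separation was seen in 18.4% of all genes tested for higher values in SK-Hep1 and in 14.9% for lower values in HepG2. The 6 genes were picked by the difference in these same libraries, so their separation is no added support. Only HSPA5 passed without each library and under every other setting. No cause of these differences was tested.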

How the results depend on the processing

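Of 1959 member values compared with the value reported, 1856 kept direction and side of the threshold, 88 lost a call, 15 gained one and 0 reversed. Values called in neither fit were counted as kept, and 68 of these changed sign. Of 20 members called in HepG2, 10 kept the call without each library and under every other setting. Of 29 called between the lines, 27 did.

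Calls over all genes in HepG2 (2571) were 1642 with limma on the deposited log2 matrix and 1575 with each library of it centred on its median gene, a setting added after seeing the data. Leaving out each library gave 1793 to 2694. ATF4-type members lower in HepG2 (8) were 5 and 4 with these matrices, and 4 to 9 without each library. ER members lower (11) stayed between 8 and 11. Calls in SK-Hep1 (116) were 274 with only the groups compared in the fit and 49 to 70 without each library; limma on the matrix called 151, of which 53.6% were lower against 23.3%. Calls of the difference (500) were 312 and 325 with the matrices and 266 to 613 without each library, each of the SK-Hep1 libraries and HepG2 NC TuD replicate 1 taking it to 329 or less.

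With a replicate block, calls of the difference were 324, and 9 ER and 7 ATF4-type members were lower in HepG2. Deviations of same-numbered libraries from their group means had correlations of -0.275 to 0.0518 in HepG2 and -0.0559 in SK-Hep1. Differently numbered libraries were not compared, and deviations within so few libraries per arm are not independent. Whether the numbers pair the samples therefore cannot be decided from these correlations. The cause of these changes was not tested, beyond fewer samples where a library was left out. Depth limits CHAC1 in HepG2.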
